A study of Mus musculus with 58 samples.

Results

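The mouse genes named Zfp followed by a number encode proteins built around zinc fingers, and 214 of them were measured among 9636 genes in the somatosensory cortex of C57BL/6J mice. Members were chosen by symbol alone, as every listed gene whose name begins with Zfp and a digit, a rule that reads no measured value, although the members and the lists below were chosen with earlier results of these data known. Neither repeated head injury nor the p38 inhibitor given after it moved any of the 214 past the test. Of the factors tested, cohort was the one by which members differed. The level of females against males was not tested, and every cohort lies within a sex. In females 84 members (39.3%) differed between cohorts, a smaller share than that of all genes (50.0%). Of the 102 members that carry a KRAB repressor domain, 81 (79.4%) were higher in cohort F4 than in cohort F1, against 50.3% of all genes.

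A classical zinc finger is a short loop that holds a zinc ion between cysteines and histidines, and tandem arrays of such C2H2 fingers read DNA. In the largest branch of the family the array is joined to a Krüppel-associated box (KRAB), which recruits the corepressor Trim28 and, through it, histone methyltransferases and HP1 proteins. KRAB zinc finger proteins silence retroelements and protect imprinted loci, and in the adult brain they are among the transcription factor genes expressed at modest levels. Other members do unrelated work. Some bind RNA, some serve in neurodevelopment, and Zfp36l1 and Zfp36l2 carry CCCH fingers that bind AU-rich mRNAs and hasten their decay, an activity that p38 signalling restrains in their relative tristetraprolin.

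The 58 libraries came from 35 female and 23 male mice, aged 2 to 4 months at the start, that underwent closed head injury (5xCHI) or a sham procedure on 5 days, once a day. Each procedure was followed after 30 min by an intraperitoneal injection of SB239063 (SB, 20 mg/kg), a small-molecule inhibitor of p38 MAPK, or of saline alone. After injury 11 females and 8 males had SB and 12 females and 8 males had vehicle, and after sham 3 females and 2 males had SB and 9 females and 5 males had vehicle. All belong to the chronic time, weeks after the procedures, for which the study names about 18 and 34 days without tying an animal to a day. Every mouse, shams included, thus had 5 injections. The labels place the mice in 4 cohorts per sex (F1 to F4 with 10, 6, 14 and 5 mice, M1 to M4 with 6, 6, 6 and 5) and do not say what a cohort is. All 8 cohorts hold mice of each condition but sham SB, which occurs in F1, F2, M1 and M2. If the cohorts also differed in the day of sampling, cohort and day cannot be told apart. Library numbers run cohort by cohort, with those of F4 and then M4 last, so cohort and library order cannot be told apart either.

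Library totals ran from 28316280 to 49158277 counts over the listed genes. Defining markers of excitatory and inhibitory neurons, astrocytes, oligodendrocytes, microglia and endothelium were all measured, while those of thalamus, choroid plexus and blood were not analysed here, and 3 of 6 striatal markers were measured. The summed level of the 8 oligodendrocyte markers ranged from 2351 to 19760 CPM (counts scaled to a common library size, by TMM). That of the 3 measured striatal markers ranged from 89.89 to 696 CPM, with a median of 125.4 CPM, so dissection may have differed between libraries. On the first 5 principal components 4 libraries lay more than 3 SD from the centre: injured SB females 8 and 10, sham vehicle female 1 and sham vehicle male 2. In bulk tissue, fewer cells of a type and less RNA per cell cannot be told apart.

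By a profile search of the longest reading frame of each transcript, 102 members held a KRAB domain and 110 showed none, and 2 (Zfp267 and Zfp783) matched no transcript. These 2 are counted with the 110 as the 112 other members, and a domain outside the reading frame searched would be missed. Human counterparts of Zfp180 and Zfp263 are known to hold one, so the class of these 2 is doubtful. Further KRAB genes may stand among the other members, Zfp267 and Zfp783 included, and only Zfp180 and Zfp263 were moved in the recount below. KRAB members had a median of 12 C2H2 fingers and the others a median of 7, with up to 36. No finger of that type was found in 6 members, among them Zfp330, Zfp365, Zfp703, Zfp839 and both CCCH genes. KRAB genes also sit in clusters: 71 of 102 (69.6%) have another Zfp gene as their direct neighbour, against 25 of 110 (22.7%) of the others (RefSeq, GRCm38.p6). Of the 212 matched members, 17 share more than 10% of their 50-base windows with the transcripts of another gene, so reads from near-identical copies could be assigned to either. The highest such share was 45.2%, between Zfp932 and Gm15446.

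Zfp transcripts were present at modest levels. Members together made up 0.870% of the counts, and the median member stood at 27.7 CPM, against 50.0 CPM for all genes. KRAB members were lower still, with a median of 20.9 CPM against 34.7 CPM for the others. The same order held per kilobase of transcript, at a median of 5.82 CPM per kb for KRAB members, 8.40 for the others and 15.6 for all genes. The lowest mean count of a member was 327.8 and the smallest single count 150. Relative to the mean, counting error is largest for these lowest members. The spread between animals was close to that of other genes, with a median biological coefficient of variation of 0.114 for members and 0.110 for all genes.

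At the top of the range stood Zfp365, which encodes a DISC1-binding centrosomal protein, at 691 ± 82.5 CPM (SD, n = 58), from 459 to 811. Zfp106, an RNA-binding protein gene, followed at 398 ± 50.2 CPM, and Zfp445, a KRAB gene that guards imprinted loci, at 289 ± 48.5 CPM. Zfp706 (175 ± 15.3 CPM) and Zfp638 (147 ± 15.0 CPM) came next. Per kilobase Zfp365 was again the highest of the matched members at 162 CPM per kb, then came Zfp207 at 77.0, and Zfp445, at 46.8, stood above Zfp106 at 43.8. The lowest members were the KRAB genes Zfp658 (8.81 ± 1.65 CPM), Zfp113 (9.56 ± 1.19 CPM) and Zfp707 (9.99 ± 1.52 CPM), whose ranges overlap. Zfp771 varied most, between 5.17 and 28.4 CPM (biological coefficient of variation 0.34), ahead of Zfp692 (0.228) and Zfp40 (0.222). Zfp346, a gene for a protein that binds double-stranded RNA, varied least (0.0679), between 30.9 and 40.4 CPM, followed by Zfp12 (0.0714) and Zfp512 (0.0721).

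The cohort test asked whether any of the 4 cohorts of a sex differ, with condition held in the model. Differences between F4 and F1 are given with their SE as descriptions of what passed. Among females, 84 of 214 members had an adjusted p under 0.05 for cohort by edgeR's quasi-likelihood test with Benjamini-Hochberg adjustment, against 4816 of 9636 genes (50.0%). The members' share, 39.3%, was thus below that of all genes, as it was at an unadjusted p under 0.05 (48.6% against 57.2%). In the KRAB class 40 of 102 passed and in the other class 44 of 112, nearly equal shares, but the directions were unlike. Of all KRAB members 81 of 102 (79.4%) were higher in F4 than in F1, with a median log2 difference of 0.17, against 50.3% and 0.0022 for all genes. Of the 40 KRAB members that passed, 36 were higher in F4. The direction of all genes that passed is not given here, so this count and the like counts below have no such share beside them. With Zfp180 and Zfp263 counted as KRAB members, a change made after seeing the data, 82 of 104 were higher and the median was again 0.17. Among the 112 other members 51 were higher and the median was -0.036, a sign that turned to 0.015 with upper-quartile scaling and to 0.046 with library totals alone. The KRAB median stayed above 0 in each of the 4 scalings, from 0.17 to 0.25, with the median of all genes at 0.085 in the last. Scaling by library totals also moved the split of the members that passed, from 59 of 84 higher in F4 to 83 of 98.

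Seen library by library, the KRAB level (the mean log2 CPM of the 102 genes, each centred on its mean over the 58 libraries) was below 0 in all 10 F1 libraries and above 0 in all 5 F4 libraries. In F1 it ran from -0.27 over a median of -0.066 to -0.016. The F4 range was 0.044 to 0.16 around a median of 0.12, so the cohorts at either end did not overlap. F2 and F3 lay across both, from -0.19 to 0.14 and from -0.19 to 0.16. The other members showed no such order, with medians of 0.0055 in F1 and 0.0057 in F4. By median KRAB level F1 and F4 were the lowest and highest of the 4 female cohorts, and the planned test was over all 4, not of this pair. The levels are not adjusted for condition: the lowest F1 library came from a sham SB mouse, and F4 holds none.

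**Figure D1:**
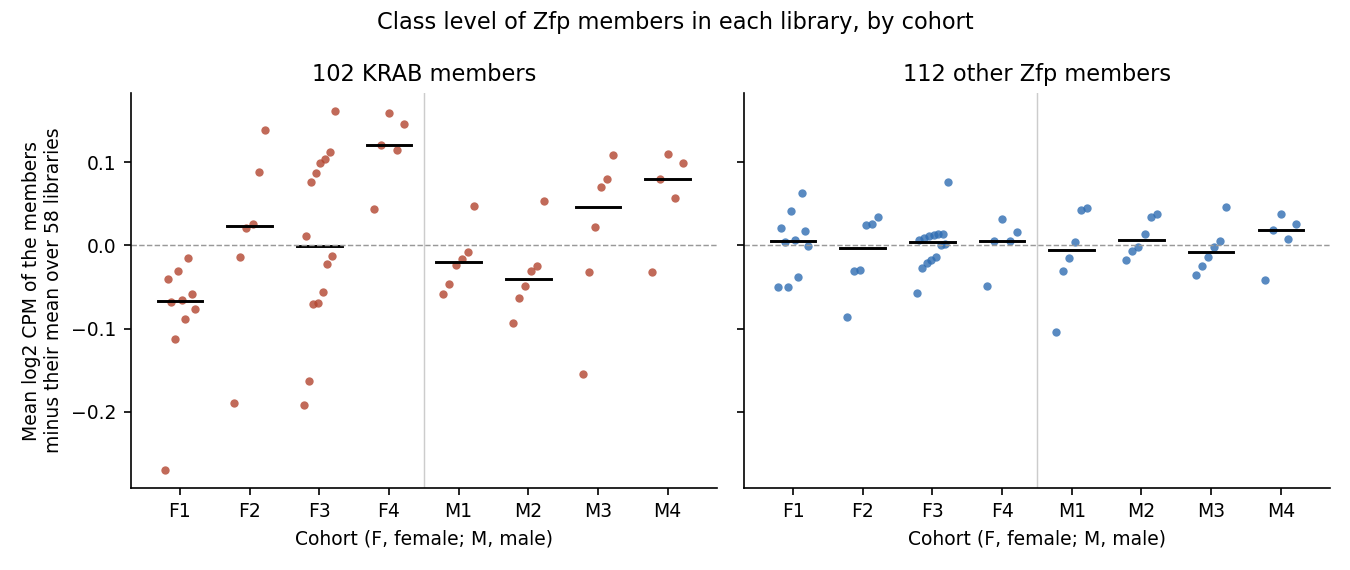
Each point is a library, placed by cohort (horizontal axis) and by the mean log2 CPM of a class of Zfp genes, centred per gene on the 58-library mean (vertical axis); bars are medians. KRAB members (left) lie below 0 in all 10 F1 libraries and above 0 in all 5 F4 libraries, while the 112 other members (right) have medians of 0.0055 and 0.0057 there.

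The shift was also seen against F1 in the other female cohorts, at a median of 0.10 in F2 (80 of 102 higher) and 0.071 in F3 (82 of 102). These values share the F1 libraries. KRAB members with 10 or more fingers had a median F4 minus F1 difference of 0.19 (61 of 75 higher), and those with fewer a median of 0.10 (20 of 27). Among the 12 that share over 10% of their windows with another gene the median was 0.13 (7 of 12 higher), and among the 90 that do not it was 0.18 (74 of 90).

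Other properties of the libraries moved along with cohort. F4 libraries were smaller, at 28320000 to 33270000 counts against 30280000 to 49160000 in F1. A set of 9 measured housekeeping genes with short transcripts had a median centred level of 0.18 in F4 and -0.073 in F1 (0.017 to 0.30 against -0.21 to 0.0029). The oligodendrocyte marker level of F4 libraries, from -1.2 to 0.35, ran past both ends of the F1 range (-0.37 to 0.33), and F2 was the highest female cohort with a median of 0.42. Across 9507 genes, which are not independent, the F4 minus F1 difference had a rank correlation of -0.43 with transcript length and 0.022 with GC content. KRAB transcripts have a median GC content of 43.2%, against 50.7% in the other members. With an offset for GC content and length fitted in every library, the KRAB median was 0.17, and without the 4 distant libraries it was 0.19.

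**Figure D2:**
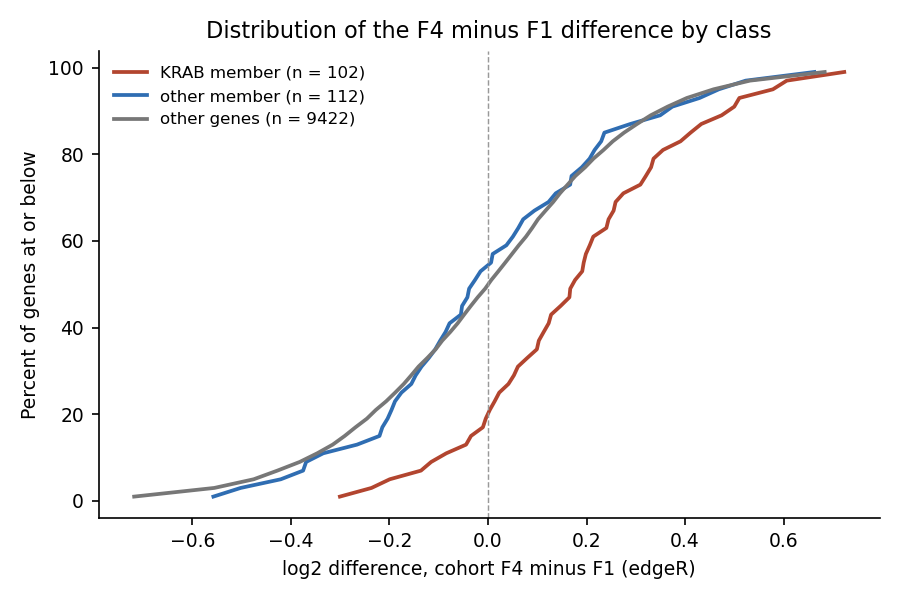
Cumulative percent of genes (vertical axis) against the log2 difference between cohorts F4 and F1 (horizontal axis), for the 102 KRAB members, the 112 other members and the 9422 other genes. The KRAB curve is displaced to the right, with a median of 0.17 against -0.036 for the other members.

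Of the individual genes, 8 had the smallest p for cohort in females. They fell into 2 that were lowest in F4, Zfp180 and Zfp106, and 6 that were highest there, Zfp330, Zfp639, Zfp326, Zfp949, Zfp933 and Zfp783. Promoters of 4 of them, the first 2 of each class with a single listed start, show how unlike these starts are. They are given from RefSeq (GRCm38.p6) as 300 bases, 250 before and 50 after the start, 5′ to 3′ on the gene's strand. Capitals mark matches on either strand to the ETS motif CCGGAAGT or to a ZNF143 motif (ACTACA, any 2 bases, TCCC). Zfp180 holds both, Zfp330 the ETS motif, Zfp933 the ZNF143 motif and Zfp949 neither.
Zfp180 promoter, chr7:24081647-24081946, plus strand: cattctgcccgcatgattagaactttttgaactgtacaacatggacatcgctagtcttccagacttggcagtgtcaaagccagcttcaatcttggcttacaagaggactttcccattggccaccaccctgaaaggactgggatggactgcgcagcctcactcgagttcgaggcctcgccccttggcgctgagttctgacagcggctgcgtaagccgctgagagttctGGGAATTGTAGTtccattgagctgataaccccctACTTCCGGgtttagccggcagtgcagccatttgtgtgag
Zfp330 promoter, chr8:82774096-82774395, minus strand: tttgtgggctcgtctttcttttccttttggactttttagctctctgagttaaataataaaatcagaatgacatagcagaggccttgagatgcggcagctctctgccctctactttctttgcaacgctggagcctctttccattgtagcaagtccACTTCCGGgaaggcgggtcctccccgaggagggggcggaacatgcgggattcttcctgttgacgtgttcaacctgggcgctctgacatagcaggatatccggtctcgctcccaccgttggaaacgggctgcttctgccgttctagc
Zfp949 promoter, chr9:88547770-88548069, plus strand: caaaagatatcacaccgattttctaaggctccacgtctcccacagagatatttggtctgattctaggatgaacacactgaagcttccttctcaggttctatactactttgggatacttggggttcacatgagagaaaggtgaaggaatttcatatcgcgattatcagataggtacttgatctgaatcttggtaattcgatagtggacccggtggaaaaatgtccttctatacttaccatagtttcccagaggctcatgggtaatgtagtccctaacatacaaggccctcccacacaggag
Zfp933 promoter, chr4:147848369-147848668, minus strand: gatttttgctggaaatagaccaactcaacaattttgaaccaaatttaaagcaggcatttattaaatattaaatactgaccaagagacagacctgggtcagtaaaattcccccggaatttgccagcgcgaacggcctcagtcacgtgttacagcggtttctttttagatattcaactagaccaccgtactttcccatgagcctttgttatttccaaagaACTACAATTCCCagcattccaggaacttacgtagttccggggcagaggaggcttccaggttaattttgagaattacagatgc

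The promoter table lists 104 starts of 89 KRAB members and 119 of 89 other members. The ZNF143 motif was searched because it was noticed in the printed sequences. It stood in 20 of the 104 KRAB promoters (19.2%), in 9 of 119 promoters (7.56%) of the other members and in 400 of 10227 promoters (3.91%) of measured genes. Shares of promoters here and below are of listed starts, so a gene with several starts counts more than once. ZNF143 is the human name of Zfp143, a transcriptional activator that is itself a member. KRAB members with the motif had a median F4 minus F1 difference of 0.17 (16 of 20 higher), and those without it also 0.17 (53 of 69). KRAB promoters held a median of 12 CpG dinucleotides, against 22 in the other members and 21 in measured genes. The GC-rich SP/KLF motif GGGGCGGGG was found in 4.81% of KRAB promoters, against 20.2% of those of the other members and 22.1% of those of measured genes. The ETS motif stood in 10.6%, 9.24% and 8.03%. The other motifs searched, those of YY1 (AAGATGGCG), NRF1 (GCGCA directly followed by its reverse complement) and CRE (TGACGTCA), each stood in 3.85% of KRAB promoters, against 3.17%, 2.07% and 3.08% of the promoters of measured genes, and TATAAA in 6.73% against 6.51%. Counts of a match describe these letters only and say nothing of binding.

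Zfp180, a C2H2 gene in which no KRAB domain was found, stood in F1 between 81.1 and 98.1 CPM with a median of 87.1. The 5 F4 libraries held 52.0, 58.3, 58.9, 63.3 and 65.0 CPM. Every F4 library was below every F1 library, and the difference was -0.56 ± 0.069 (SE) on the log2 scale (adjusted p = 6.8e-09 for cohort by edgeR). In F2 and F3 it was -0.38 and -0.37.

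Zfp106 ran from 413.5 over a median of 444 to 497 CPM in F1 and stood at 298, 300.0, 303, 317 and 323 CPM in F4. The groups did not overlap, with a log2 difference of -0.54 ± 0.076 (SE, adjusted p = 2.11e-06 by edgeR). Its protein binds RNA and is needed by motor neurons and muscle.

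Zfp330, which encodes a nucleolar cysteine-rich protein without C2H2 fingers, moved the other way. It ran from 22.65 over 26.6 to 28.7 CPM in F1 and stood at 37.05, 38.1, 39.8, 40.6 and 40.7 CPM in F4, a difference of 0.54 ± 0.073 (SE, adjusted p = 9.53e-07 by edgeR). The F4 libraries were all above the F1 libraries, although 19.1% of its windows are shared with Gm7785.

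Zfp639 showed the same order, with 23.6 to 28.9 CPM (median 26.2) in F1 and 35.1, 35.9, 37.5, 38.5 and 38.8 CPM in F4. Its difference was 0.48 ± 0.069 (SE, adjusted p = 1.21e-06 by edgeR). Zfp326, whose protein couples RNA polymerase to splicing, ran from 30.5 to 45.4 CPM (median 37.2) in F1 and stood at 46.0, 50.1, 52.7, 57.5 and 58.6 CPM in F4. That is a difference of 0.46 ± 0.073 (SE, adjusted p = 3.37e-06 by edgeR), again with no overlap.

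The KRAB gene Zfp949 stood between 21.5 and 27.5 CPM (median 24.4) in F1 and at 30.15, 32.5, 33.1, 34.05 and 34.7 CPM in F4, higher by 0.42 ± 0.066 (SE, adjusted p = 5.79e-06 by edgeR). Zfp933, another KRAB gene, was at 17.5 to 24.9 CPM in F1, 14.0 to 23.7 CPM in F3 and 24.2, 26.1, 27.4, 27.8 and 30.8 CPM in F4. Here the extremes were F3 and F4, which do not overlap, while F1 and F4 do (adjusted p = 1.38e-05 by edgeR). Zfp783 had the largest difference of the 8, from 4.73 to 9.42 CPM in F1 against 13.0, 13.05, 13.7, 14.1 and 14.7 CPM in F4, or 0.84 ± 0.13 (SE, adjusted p = 2.12e-05 by edgeR).

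**Figure D3:**
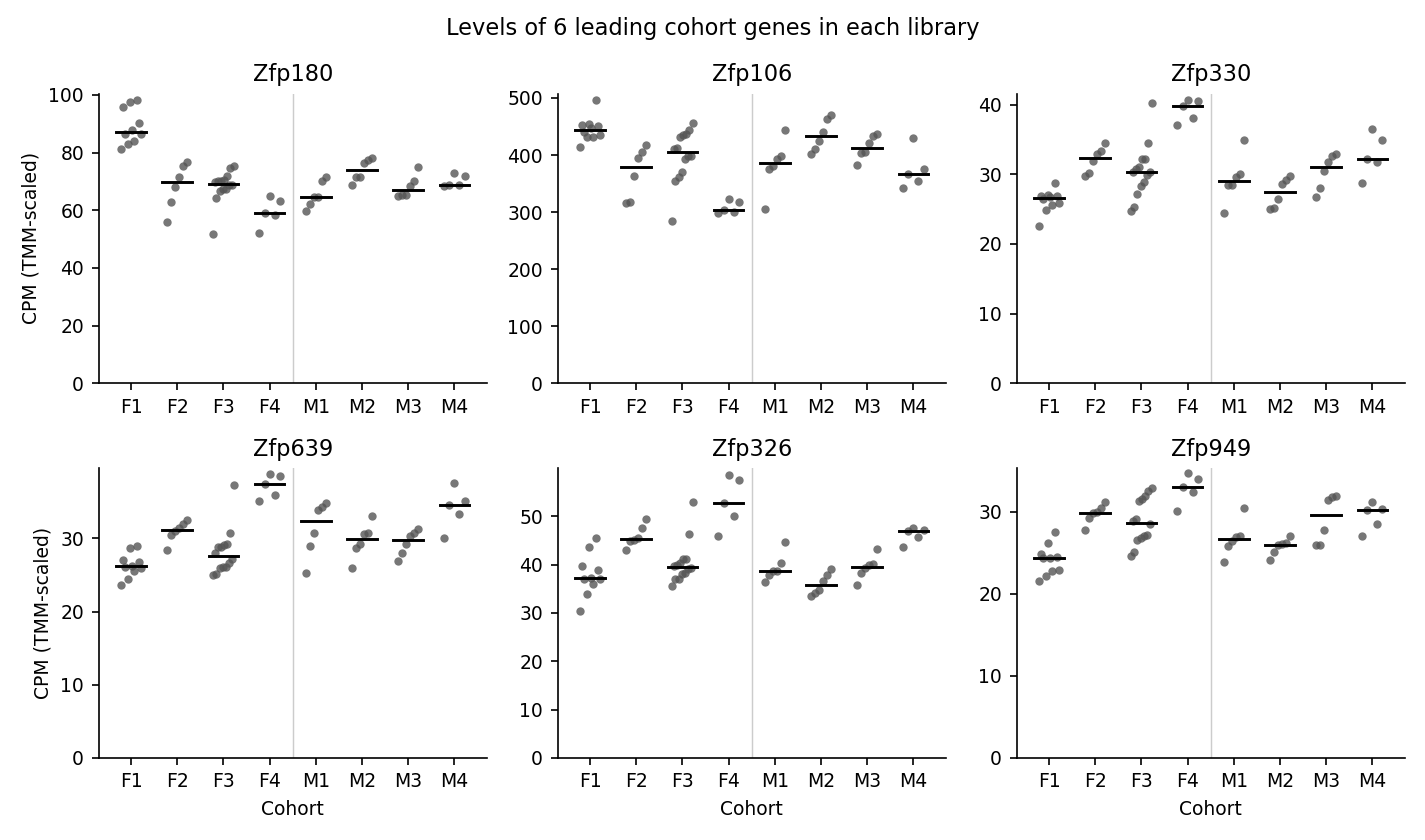
CPM of 6 members in each of the 58 libraries (points) by cohort, with medians as bars; the vertical axes start at 0. In females Zfp180 and Zfp106 are lowest in F4 and Zfp330, Zfp639, Zfp326 and Zfp949 highest, with no F4 library inside the F1 range of its gene.

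Among males, 5 of 214 members (2.34%) differed between cohorts, against 369 of 9636 genes (3.83%), and at an unadjusted p under 0.05 there were 18.7% against 19.9%. All 5 also passed in females, as did 325 of the 369 genes that passed in males (88.1%). They were the KRAB genes Zfp182 and Zfp445 and, among the other members, Zfp326, Zfp263 and Zfp280c, of which Zfp280c lost its call in 8 alternatives. DESeq2 called 9. The count rested on single libraries: it was 0 without sham vehicle male 1 and 2 without sham vehicle male 3, and 8 or 9 without sham vehicle male 2 or 4. It was 21 with the offset for GC content and length and 13 without the 4 distant libraries.

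Zfp182 ran from 12.1 over 13.8 to 16.1 CPM in M1 and stood at 17.35, 21.9, 22.2, 23.1 and 23.6 CPM in M4, higher by 0.61 ± 0.15 (SE, adjusted p = 0.00953 for cohort by edgeR). In females it was at 9.08 to 18.9 CPM in F1 and at 18.1, 22.4, 23.9, 25.0 and 25.8 CPM in F4, a difference of 0.61 ± 0.13 (SE). M1 and M4 did not overlap for this gene, and F1 and F4 overlapped in their tails. Zfp445 ran from 242 to 299 CPM in M1 and stood at 317, 326, 339.6, 346 and 361 CPM in M4, higher by 0.34 ± 0.11 (SE, adjusted p = 0.0306 by edgeR). Its F1 libraries held 205 to 291 CPM and its F4 libraries 337, 355.5, 381, 388 and 409 CPM, a difference of 0.50 ± 0.096 (SE). In both sexes the last cohort thus lay above the first without overlap.

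Over all KRAB members the M4 minus M1 difference had a median of 0.071, with 71 of 102 higher, against -0.0057 and 48.2% for all genes. The other members had a median of 0.0041. Names such as F4 and M4 are not said to mark a shared event.

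Grouped by role, the lists hold 2 to 9 members each, so the share that passed in females is to be read against the 50.0% of all genes. Directions are to be read against all genes, which split almost evenly between higher and lower in F4. Of the 4 genes of the imprint and retroelement list 3 passed in females and were higher in F4, Zfp932 by 0.72 ± 0.12 (SE), Zfp445 by 0.50 and Zfp57 by 0.48 ± 0.18 (SE). Zfp932, which silences endogenous retroviruses together with its sister gene Gm15446, ran from 22.0 to 39.2 CPM in F1 and stood at 51.8, 53.1, 55.2, 58.7 and 64.8 CPM in F4 without overlap (adjusted p = 3.68e-05 by edgeR). Zfp932 has the highest share of windows in common with another gene, Gm15446, so reads of the 2 genes could be assigned to either. Zfp57, which maintains methylation at imprinted loci, was at 7.73 to 13.6 CPM in F1 and at 12.1, 12.6, 13.0, 13.8 and 18.7 CPM in F4. Those groups overlap, its adjusted p was 0.0482 by edgeR, and it lost the call with any 1 of 12 libraries left out (up to an adjusted p of 0.184, without injured SB female 8) and without the 4 distant libraries (0.401). Zfp809, which recognises the primer binding site of murine leukaemia virus, did not pass (-0.24 ± 0.11, SE, adjusted p = 0.12 by edgeR).

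Members with roles in neural development lay on the other side. All 9 were lower in F4 than in F1, with a median of -0.21, and 8 of 9 were lower with upper-quartile scaling or library totals. Over all genes the F4 minus F1 difference fell with transcript length, and whether that trend accounts for the direction of this list was not tested. The 5 that passed (55.6%, near the 50.0% of all genes) were each lower in F4. Zfp609, a Nipbl partner in cortical neuron migration, ran from 70.7 to 83.7 CPM in F1 and stood at 44.1, 48.3, 51.4, 55.7 and 58.1 CPM in F4 (-0.53 ± 0.11, SE, adjusted p = 3.09e-04 by edgeR). Zfp365 ran from 669 to 800.1 CPM in F1 and stood at 509, 559, 564, 582 and 594 CPM in F4 (-0.37 ± 0.082, SE, adjusted p = 5.51e-04 by edgeR). Neither gene's groups overlap.

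The same held for Zfp804a, the mouse counterpart of a schizophrenia risk gene, at 15.9 to 25.0 CPM in F1 and 8.39, 12.0, 12.5, 13.8 and 15.1 CPM in F4 (-0.59 ± 0.15, SE, adjusted p = 0.00212 by edgeR). Zfp462, a chromatin regulator of neurodevelopment, was at 52.9 to 61.0 CPM in F1 and at 39.6, 41.45, 44.2, 44.5 and 51.1 CPM in F4 (-0.37 ± 0.096, SE, adjusted p = 0.00243 by edgeR). The fifth gene of the list that passed differed by -0.21 ± 0.087 (SE, adjusted p = 0.0286 by edgeR): Zfp703, a transcriptional corepressor gene.

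Zfp532, Zfp592 and Zfp687 encode the zinc finger proteins of the Z3 complex, which they form with the bromodomain reader Zmynd8. All 3 were lower in F4, under each of the 4 scalings. Zfp532 ran from 71.7 to 82.8 CPM in F1 and stood at 55.4, 56.0, 57.4, 58.1 and 62.2 CPM in F4, a difference of -0.35 ± 0.076 (SE, adjusted p = 7.13e-05 by edgeR). Zfp592 differed by -0.20 ± 0.076 (SE, adjusted p = 0.0209 by edgeR) and did not pass with library totals (adjusted p = 0.108), with the GC and length offset (0.286) or without the distant libraries (0.0583). Zfp687 did not pass (-0.084 ± 0.075, SE).

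RNA-binding and ribosome-associated members had no common direction: 5 of 9 were higher in F4, and of the 4 that passed Zfp326 and Zfp622 were higher and Zfp106 and Zfp385b lower. Zfp385b was at 41.5 to 52.7 CPM in F1 and at 30.6, 32.0, 35.2, 36.3 and 40.0 CPM in F4 (-0.44 ± 0.079, SE, adjusted p = 3.17e-05 by edgeR). Zfp622, a factor of late large-subunit assembly, differed by 0.15 ± 0.10 (SE) between F4 and F1 and more between F2 and F1, at 0.27 (adjusted p = 0.0418 by edgeR). Its F4 libraries, at 32.0 to 47.9 CPM, overlapped those of F1, at 31.05 to 42.9 CPM.

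Among 8 widely used DNA-binding and other nuclear members 7 were lower in F4 (5 with library totals alone), and 4 passed. Zfp148, which binds GC-rich promoters, ran from 123 to 167 CPM in F1 and stood at 102.1, 102.2, 107.5, 112.1 and 113.9 CPM in F4 (-0.42 ± 0.11, SE, adjusted p = 0.00212 by edgeR). Zfp143 was lower by 0.19 on the log2 scale (-0.19 ± 0.11, SE, adjusted p = 0.00786 by edgeR), from 13.8 to 19.0 CPM in F1 to 11.8, 13.5, 14.5, 14.8 and 15.4 CPM in F4. Its groups overlap, and F3 was lower still at -0.31. Zfp384 was higher (0.24 ± 0.079, SE, adjusted p = 0.0482 by edgeR), and its call was lost in 9 alternatives. Zfp91, a ubiquitin ligase gene, was the other that passed.

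The partners of KRAB proteins were followed through a list of 35 corepressor and heterochromatin genes, of which 31 were measured. In females 13 of the 31 passed for cohort (41.9%, below the 50.0% of all genes), and 10 of these were higher in F4. The directions of all 31 and of all genes that passed are not given here, so the 10 is not a result about the list. Trim28, the corepressor that KRAB domains bind, did not pass, with 99.1 to 116 CPM in F1 and 105 to 116 CPM in F4 (0.089 ± 0.057, SE, adjusted p = 0.332 by edgeR). Setdb1, the methyltransferase that Trim28 recruits, did, at 51.9 to 67.5 CPM in F1 and 70.8 to 81.0 CPM in F4 without overlap. It was higher by 0.37 ± 0.072 (SE, adjusted p = 5.13e-04 by edgeR), and in males by 0.31 ± 0.079 between M4 and M1 (adjusted p = 0.0114 by edgeR). Hdac1 (0.42 ± 0.078), the HP1 gene Cbx3 (0.32 ± 0.083) and Mphosph8 of the HUSH complex (0.47 ± 0.13) were higher in F4, while Atf7ip (-0.34 ± 0.091) and Pphln1 (-0.32 ± 0.075) were lower.

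Other zinc finger families did not all follow. Of 12 Zscan and Zkscan genes, which join a SCAN domain to C2H2 fingers, 10 were higher in F4 with a median of 0.27. Zkscan genes are named for a KRAB box as well, and KRAB content was not compared within these 12. For cohort in females 7 of the 12 passed, against 4816 of 9636 genes, and 6 of the 7 were higher. Of 24 Zbtb genes, which join a BTB domain to the fingers, 10 were higher with a median of -0.096, a count that became 12 with upper-quartile scaling or library totals. Genes for Zdhhc palmitoyltransferases (9 of 19 higher) and Zc3h proteins (8 of 12 higher) lay between.

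Turning to the treatments, the comparison of injured with sham vehicle mice asked which Zfp transcripts still differ weeks after repeated head injury. No member passed, as no gene did (0%). The smallest adjusted p of a member was 1 by edgeR, and DESeq2 gave 0 too. At an unadjusted p under 0.05 there was 1 member, against 169 of 9636 genes (1.75%). The 95% interval reached no further than 1.2-fold up or down in 203 of 214 members, and no further than 1.5-fold in all 214.

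That member was Zfp513, a C2H2 gene with a role in retinal development. It ran from 14.8 over 20.4 to 24.7 CPM in the 14 sham vehicle mice and from 14.3 over 18.5 to 22.0 CPM in the 20 injured vehicle mice, with a log2 difference of -0.17 ± 0.073 (SE, unadjusted p = 0.0276 by edgeR). The groups overlap over most of their range. The other genes of smallest p and lower level were Zfp787 (-0.14 ± 0.083), Zfp428 (-0.18 ± 0.11) and Zfp598 (-0.13 ± 0.080), the ligase that marks collided ribosomes. Those with higher level were the KRAB genes Zfp248 (0.12 ± 0.061), Zfp90 (0.11 ± 0.054) and Zfp28 (0.11 ± 0.068) and Zfp318 (0.11 ± 0.057), known for the splicing of IgD in B cells. None passed.

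By class, 78 of 102 KRAB members were higher after injury, with a median of 0.025, and 60 of 112 other members, with a median of 0.0018, against 49.4% and a median of -6.7e-04 for all genes. In males 87 of 102 KRAB members were higher (median 0.074), and in females 40 of 102 (median -0.010). The injury difference in males had a rank correlation of -0.60 with GC content over all genes and -0.65 over members. With the offset for GC content and length 56 of 102 KRAB members were higher in males and 60 over both sexes. Without the 4 distant libraries 47 of 102 were higher over both sexes. The cause of these moves was not tested. In males, 8 members had an unadjusted p under 0.05 (3.55% of all genes), and in females 5 (3.14%), and none passed in either. In males Zfp248 was at 0.26 ± 0.098 (SE, adjusted p = 0.846 by edgeR), and in females Zfp946 was at -0.22 ± 0.080 (SE, adjusted p = 1 by edgeR).

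**Figure D4:**
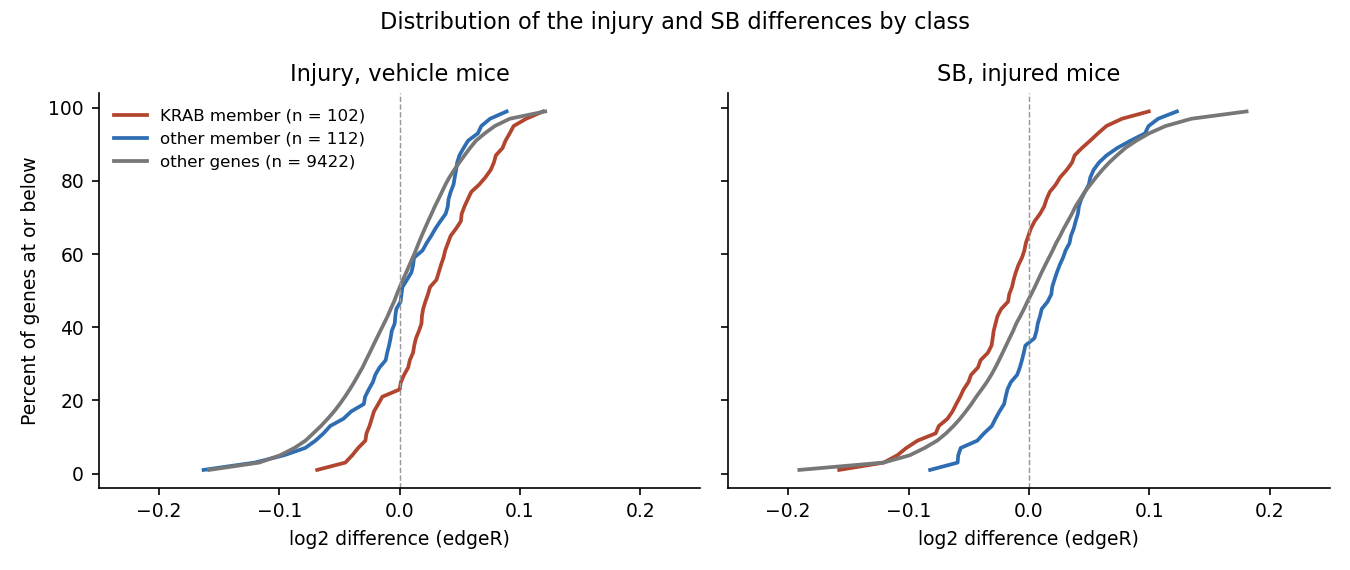
Cumulative percent of genes (vertical axis) against the log2 difference (horizontal axis) for injury in vehicle mice (left) and SB in injured mice (right), for KRAB members, other members and all other genes. KRAB members have a median of 0.025 for injury and -0.015 for SB, and no gene passed in either comparison.

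SB was compared with vehicle in injured mice to ask whether p38 inhibition at the time of injury left a trace in these genes. No member and no gene passed (0%), by edgeR or DESeq2, and the smallest adjusted p of a member was 0.655. At an unadjusted p under 0.05 there were 4 members, against 680 of 9636 genes (7.06%), and 207 of 214 intervals stayed inside 1.2-fold. All 4 were KRAB genes with a lower level after SB.

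Zfp874b ran from 15.3 over 20.5 to 23.9 CPM in the 20 injured vehicle mice and from 13.6 over 17.6 to 21.3 CPM in the 19 injured SB mice, a difference of -0.16 ± 0.062 (SE, unadjusted p = 0.0137, adjusted p = 0.655 by edgeR). Zfp14 was at 10.1 to 18.2 CPM (median 13.2) against 9.32 to 14.9 CPM (median 12.2), or -0.14 ± 0.057 (SE, unadjusted p = 0.0187). Zfp931 (-0.17 ± 0.077) and Zfp942 (-0.12 ± 0.060) were the other 2. In all 4 the groups overlap over most of their range, and Zfp874b (14.2%) and Zfp931 (22.2%) share over 10% of their windows with other genes. The genes of smallest p with a higher level were Zfp777 (0.077 ± 0.042), Zfp865 (0.11 ± 0.060), Zfp462 (0.095 ± 0.055) and Zfp335 (0.11 ± 0.061), a regulator of neural progenitors.

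The 2 classes leaned apart after SB: 66 of 102 KRAB members were lower (median -0.015), whereas 71 of 112 other members were higher (median 0.019), with 52.2% of all genes higher. The SB difference had a rank correlation of 0.50 with GC content over members and 0.27 over all genes. With the GC and length offset 45 KRAB members were higher, against 36 before, and 36 without the distant libraries.

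Zfp36l1 and Zfp36l2 are the members closest to the drug's target, since p38 and its kinase Mapkapk2 act on proteins of this family. The family's founder Zfp36 (tristetraprolin) was not analysed here. Zfp36l1 ran from 21.1 over 25.1 to 32.8 CPM in sham vehicle, from 19.0 over 27.4 to 31.8 CPM in injured vehicle and from 19.7 over 27.4 to 33.6 CPM in injured SB mice. Sham SB mice stood at 21.1, 21.2, 22.4, 23.6 and 39.1 CPM, with a single female far above the rest. The injury difference was 0.039 ± 0.064 (SE) and the SB difference 0.0064 ± 0.057 (SE, 95% interval -0.11 to 0.12).

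Zfp36l2 ran from 15.4 over 18.4 to 22.8 CPM in sham vehicle, from 15.2 over 20.0 to 22.7 CPM in injured vehicle and from 14.8 over 19.2 to 25.7 CPM in injured SB mice. Its differences were 0.066 ± 0.063 (SE) for injury and -0.0060 ± 0.057 (SE, 95% interval -0.12 to 0.11) for SB. All 4 conditions overlap for both genes. For cohort in females their adjusted p was 0.0708 (Zfp36l1) and 0.0705 (Zfp36l2) by edgeR, and both passed with upper-quartile scaling (0.0253 and 0.0471). Of the 9 listed genes of the p38 arm upstream of tristetraprolin and its decay partners 8 were measured, and none passed for injury or SB; the p38α gene Mapk14 was at -0.041 ± 0.034 for injury and 0.040 ± 0.031 for SB. For cohort in females 4 of the 8 passed, the same share as over all genes (50.0%).

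**Figure D5:**
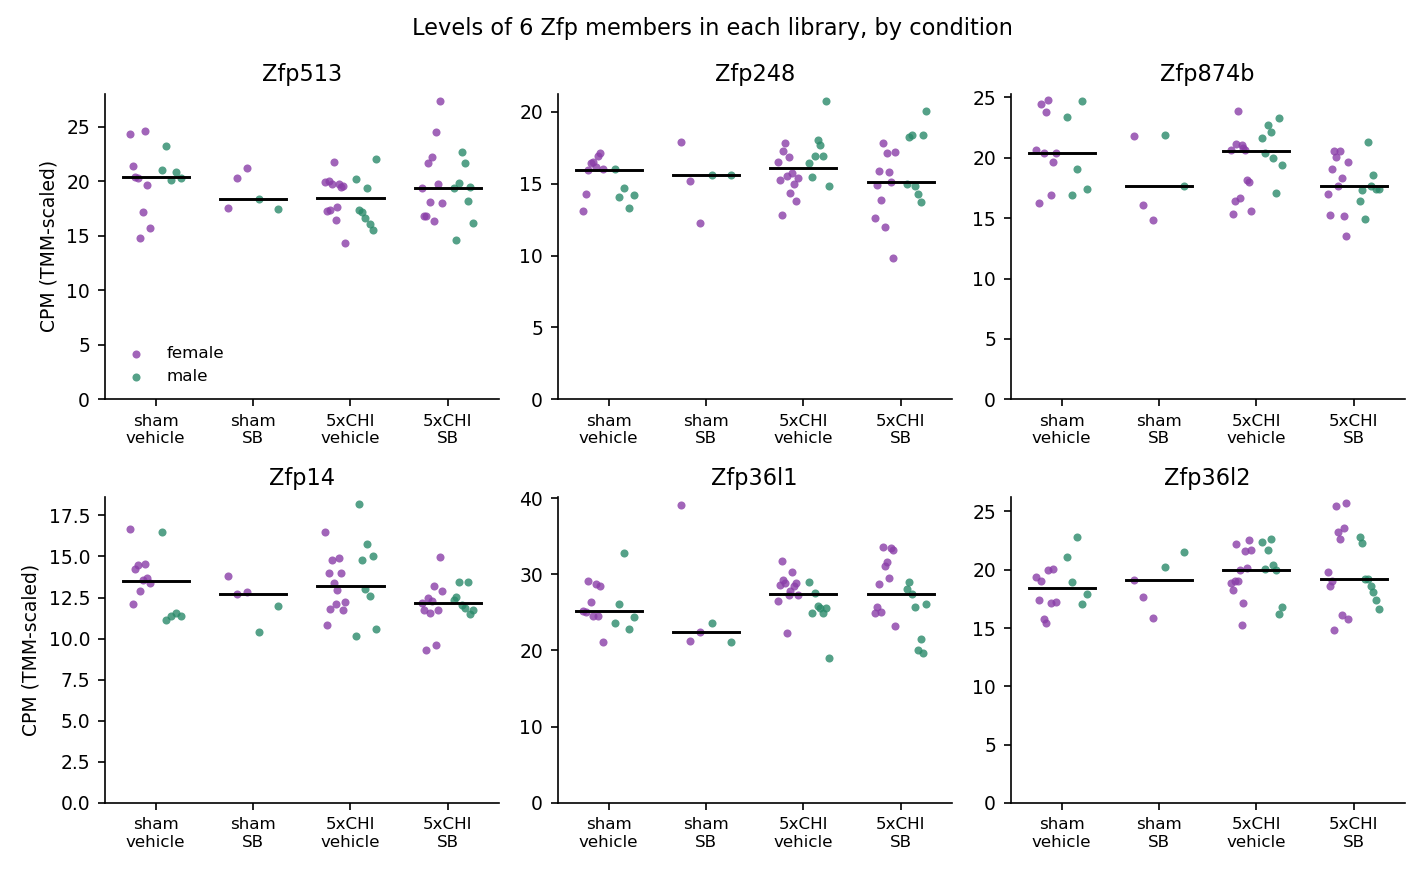
CPM of 6 members in each library (points, coloured by sex) by condition, with medians over both sexes as bars; the vertical axes start at 0. Zfp513, Zfp248, Zfp874b, Zfp14, Zfp36l1 and Zfp36l2 overlap between all 4 conditions.

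In the remaining comparisons no member and no gene passed (0% in each, edgeR and DESeq2). Injured SB mice set against sham vehicle mice, which share groups with both comparisons above, gave 14 members with an unadjusted p under 0.05 (12.6% of all genes), led by Zfp874b at -0.20 ± 0.069 (SE, adjusted p = 0.333 by edgeR). Next came Zfp330 (-0.12 ± 0.048), and on the higher side Zfp462 (0.15 ± 0.062) and Zfp142 (0.14 ± 0.058). SB in sham mice, with 5 treated animals, gave 8 (7.02% of all genes), led by Zfp839 at -0.18 ± 0.071 (SE, adjusted p = 0.677 by edgeR), with Zfp160 (-0.25 ± 0.11) also lower and Zfp592 (0.18 ± 0.075) and Zfp142 (0.17 ± 0.088) higher. Zfp839 also led the injury by SB interaction, at 0.22 ± 0.082 (SE, adjusted p = 0.999 by edgeR), and was its only member under 0.05 (1.38% of all genes). Its sham SB libraries held 10.5, 12.45 and 12.7 CPM in females and 12.9 and 13.85 CPM in males. Sham vehicle females held 12.5 to 16.5 CPM and males 14.3 to 17.3 CPM, so the sham groups of males do not overlap.

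For the SB effect within a sex, 4 members in females (7.21% of all genes) and 2 in males (1.88%) had an unadjusted p under 0.05. Zfp12, a KRAB gene and among the least variable members, was at 0.13 ± 0.043 in injured SB females (SE, adjusted p = 0.693 by edgeR), with 38.3 to 44.8 CPM against 33.9 to 45.1 CPM in vehicle. The sex difference of the injury effect gave 13 members (6.13% of all genes), led by Zfp946 at 0.43 ± 0.13 (male minus female, SE, adjusted p = 0.786 by edgeR). In it 82 of 102 KRAB members were higher, a count of 59 with the GC and length offset. The sex difference of the SB effect gave 2 members (0.913% of all genes), Zfp12 and Zfp263. A p that misses the threshold does not show that these genes were equal between the groups.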

How the data were processed

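PolyA-selected RNA from the somatosensory cortex of 58 mice was sequenced from directional libraries, per the labels' protocols. The authors deposited a table of read counts per gene, made with STAR and featureCounts on GRCm39 per the submitters' processing notes, with versions and the strand setting not given in the sources used here. The deposited counts were raw whole numbers, and every listed gene had at least 101 in each library, so low genes had already been left out. All 9636 genes were fitted in edgeR 4.0.16 (R 4.3.3) with TMM scaling and robust quasi-likelihood, with 8 groups of sex, injury and treatment plus cohort within sex, and p-values were adjusted by Benjamini-Hochberg over all genes at 0.05. Injury and SB effects are means of both sexes unless a sex is named. CPM values are from the same scaling and are not adjusted for cohort. The labelled samples were taken as separate animals. If any share an animal, p-values measure partly technical spread. Scripts were tested on simulated counts.

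KRAB domains and C2H2 fingers were found in the longest reading frame of GENCODE M21 transcripts with pyhmmer 0.12.3 (a profile from 143 seed stretches, E-value up to 1e-05), in place of a protein table that was planned and not used here. Promoters and gene neighbours are from RefSeq GRCm38.p6 and were joined by symbol, and no coordinates of that build were joined to the counts. The named genes are the 4 of smallest p in each direction for injury and for SB, the leading genes of the other comparisons, the 8 of smallest p for cohort in females, those that passed in males, the role lists, and the highest, lowest and most and least variable members. Members and lists were chosen with earlier results of these data known. Alternatives were DESeq2 1.42.0, other scalings, a replicate block, no cohort term and single libraries left out. A GC and length offset and leaving out 4 distant libraries were added after seeing the data.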

Additional observations from a re-analysis of the deposited data

Results flagged for a closer look

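In groups of 4 to 10 libraries, 11 of 276 tests over 69 values found a library set apart from the rest of its group. That is a smaller share than the about 1 in 20 that chance gives. The values are not adjusted for cohort. Sham vehicle female 1, male 1 and male 4 are each the only sham vehicle mouse of their cohort, so library and cohort cannot be told apart there. The values are log2 CPM.

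Sham vehicle female 1, which was also among the distant libraries, had the lowest Zfp946 (4.068, next 4.365) and the lowest Zfp46 (4.711, next 5.379) of its group. Sham vehicle male 2, another distant library, had the lowest Zfp113 at 2.846 (next 3.308). Sham vehicle male 4 was highest in Zfp277 (4.573, next 4.351) and in Zfp949 (4.932, next 4.76), and sham vehicle male 1 was highest in Zfp14 at 4.05 (next 3.534). Injured vehicle male 8 was highest in Zfp335 (5.462, next 5.202) and lowest in Zfp36l1 (4.255, next 4.641). Among injured SB males, library 6 was lowest in Zfp592 at 4.891 (next 5.216), library 3 in Zfp622 at 5.09 (next 5.28) and library 5 in Zfp91 at 7.017 (next 7.192).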

How the results depend on the processing

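No member passed for injury, SB or any other treatment comparison under any alternative run. The count for cohort in females stayed between 67 and 106 of 214 and the KRAB median of F4 minus F1 between 0.16 and 0.25. Leaving out a library ranged over 67 to 91 and 0.16 to 0.20. The count for cohort in males, 5, became 8 with library totals alone, 9 with DESeq2, 21 with the GC and length offset and 13 without the 4 distant libraries, and ran from 0 to 9 with 1 library left out. The causes were not tested. Without the 4 distant libraries the median member stood at 1.1e-04 for injury, with 107 of 214 higher.

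The SB difference of both CCCH genes was too near 0 to keep its sign. Zfp36l1 was at -0.003819 with upper-quartile scaling, -0.002041 with library totals and -0.01219 without the distant libraries, and ran from -0.001758 to 0.009248 with 1 library left out. Zfp36l2 was at 8.59e-04 without the cohort term and 0.005259 with the replicate block, and ran from -0.01029 to 0.01361 with 1 library left out.

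With a replicate block in place of cohort the median member was at 0.014 for injury and -0.0031 for SB, and 0 members passed. Libraries with the same number in different groups had a mean correlation of -0.018 over 142 pairs, against 0.188 over 169 pairs of the same cohort, so the numbers were not taken to pair samples. The smallest count of any member was 150, but sham SB rests on 5 mice, and 110 of 214 intervals there stayed inside 1.2-fold.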
